A study of Mus musculus with 22 samples.

Results

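The genes described here encode the enzymes and carriers of glycolysis, glycogen turnover and lactate transport, with the enzymes that decide whether pyruvate enters the mitochondrion. They are 34 genes of 24537 in the deposited expression table, taken by name, and all 34 had a row. They were measured in visual cortex of C57BL/6J mice from a cross of the GFAP-cre line 73.12 to the RPL22-HA line, and every group carried both alleles. In these mice Cre exchanges an exon of the gene for the ribosomal protein RPL22 for one with an HA tag, so that Cre-expressing cells carry tagged ribosomes, and an antibody against HA then pulls down the ribosomes of those cells with their mRNA (Ribotag).

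There were 5 groups. Normally reared mice were kept in a light and dark cycle to postnatal day 45 (3 pulldown libraries). Dark-reared mice of the same age spent 24 hours a day in the dark from birth (4 pulldown libraries used). Dark-exposed mice spent 10 days in the dark and were taken at postnatal day 120 (3 pulldown libraries). Mice at postnatal day 28 had 2 days of monocular deprivation, with the cortex contralateral and ipsilateral to the deprived eye taken separately (3 pulldown libraries each). Each group had 1 input library, RNA of the whole tissue piece before the pulldown, which gave 16 pulldowns and 5 inputs. The brains were perfused with paraformaldehyde before dissection, and the libraries were selected for poly(A). Cre under the GFAP promoter marks cells in which that promoter is or was active, so the tag is not limited by design to mature astrocytes. The labels do not say whether replicates came from separate animals, so p-values measure the spread between these libraries only.

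As background, glycolysis splits glucose into pyruvate, and lactate dehydrogenase interconverts pyruvate and lactate. Glycogen, the branched store of glucose, is held in the adult brain mainly by astrocytes. Monocarboxylate carriers move lactate across membranes, and passage of lactate from astrocytes to neurons is a long-standing proposal for how the cortex fuels activity. Most steps have several isozymes from separate genes, and many of those are used unequally by neurons and glia.

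The pulldowns carried the astrocyte markers the label implies. All 12 astrocyte marker genes tested were higher in pulldown than in input, and all 12 neuron and all 10 microglia markers were lower. Oligodendrocyte markers were not depleted: 6 of 8 were higher in pulldown, by a median of 0.77 on the log2 scale. Of the 5 oligodendrocyte precursor markers 4 were higher and 1 lower, with a median of 0.66 (log2), and the part of these cells in the gene values was not tested. Summed neuron markers stood at 267.9 to 1204.3 FPKM (fragment counts scaled to transcript length and library depth) in pulldowns and at 3411.9 to 4007.7 FPKM in inputs. The steps between low FPKM values gave a depth of 21.1 to 51.2 M reads in the 20 libraries where they were clear. The ribosomal RNA gene Rn45s was at 130.3 to 159.5 FPKM in 3 pulldowns (normally reared, contralateral and ipsilateral replicate 3) and at 4279.9 to 31653.8 FPKM in the other 13.

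Promoters of the genes are described here by their letters. The genes were taken by pathway, and the list was made with earlier results of these data known. RefSeq windows of build GRCm38.p6, the assembly of the deposited coordinates (mm10), running from 250 bases before to 50 bases after each start, were given for 32 of the 34 genes. The 3 upstream stretches shown belong to the muscle-type glycogen phosphorylase gene Pygm and the glycogen-targeting phosphatase subunit gene Ppp1r3c, which were high in the pulldown, and to the enolase gene Eno2, which was low. They were chosen for display and do not stand for high and low genes in general. They end before the first base of any transcript of the gene in RefSeq or GENCODE vM21, and run 5′ to 3′ on the gene's own strand. Pygm lies on the plus strand (chr19:6384158-6384398), Ppp1r3c on the minus strand (chr19:36736654-36736854) and Eno2 on the minus strand (chr6:124769674-124769923). Capitals mark ACGTG or GCGTG on either strand, the core of the element that hypoxia-inducible factors bind.
Pygm: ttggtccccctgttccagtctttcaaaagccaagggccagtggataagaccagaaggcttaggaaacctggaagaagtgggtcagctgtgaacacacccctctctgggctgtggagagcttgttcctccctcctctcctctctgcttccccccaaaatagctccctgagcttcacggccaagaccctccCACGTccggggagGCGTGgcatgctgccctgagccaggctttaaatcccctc
Ppp1r3c: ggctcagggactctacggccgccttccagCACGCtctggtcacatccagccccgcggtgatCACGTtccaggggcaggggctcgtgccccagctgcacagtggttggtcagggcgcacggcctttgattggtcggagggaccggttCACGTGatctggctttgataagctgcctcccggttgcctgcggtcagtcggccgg
Eno2: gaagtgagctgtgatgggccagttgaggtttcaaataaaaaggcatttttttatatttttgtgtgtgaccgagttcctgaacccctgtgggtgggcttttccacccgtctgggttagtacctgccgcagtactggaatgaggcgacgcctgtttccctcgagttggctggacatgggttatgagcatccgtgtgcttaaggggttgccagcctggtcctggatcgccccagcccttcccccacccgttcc

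The Pygm stretch held a match starting 61 bases and a match starting 48 bases before the RefSeq start. In Ppp1r3c the matches included the palindrome CACGTG (an E-box, which both strands read alike and which contains ACGTG on each). The Eno2 stretch held none. A stretch of Aldoc cut by the same rule, not shown here, held none in its 145 bases. Aldoc had the largest difference between pulldown and input of the genes tested (3.52, log2). The full window at the same Aldoc start held 3 matches. Genes of either direction held or lacked a match. The window of Gys1, high in the pulldown, held none either, and the window of Slc16a3, lower in the pulldown, held 2. Windows of Pfkp and Hk1 held 4 and up to 5 matches. Both genes were called lower, but their differences (-0.28 each, log2) lay near the median of all genes (-0.31). Slc2a3 and Slc16a7, also lower in the pulldown, had no window. Over the full windows, ACGTG on either strand was in 21 of 32 genes (65.6%), against 21.8% of 27025 genes in the RefSeq table and 29.8% of the 9273 expressed genes that had a window. GCGTG was in 20 of 32 (62.5%), against 35.2% and 57.4%. CACGTG was in 7 of 32 (21.9%), against 8.09% and 12.1%. A gene with several windows counted if any of them held the motif. The 32 genes had 47 windows, against 32851 windows for the 27025 genes, and this difference was not adjusted for. A match describes letters only.

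The first comparison asked which of these genes, and which isozymes, were enriched on astrocyte ribosomes. Of 34 genes, 32 passed the filter of a mean above 1 FPKM. Of these, 22 were higher and 6 lower in pulldown than in input at an adjusted p under 0.05 (limma on log2 of FPKM + 1, group as a term, Benjamini-Hochberg over all 12070 genes tested). Over all genes tested the shares were 26.4% higher and 50.7% lower. The median difference was 0.55 on the log2 scale for the 32 genes and -0.31 for all genes tested. Quantile or median-ratio scaling moved the median of all genes to 0.01 or 0.02, with 4646 higher and 4638 lower or 4552 higher and 4527 lower, so the differences below are to be read against -0.31. The 6 lower genes were Eno2, Slc2a3, Slc16a7, Slc16a3, Hk1 and Pfkp, and the 4 that did not pass the threshold were Aldoa, Tpi1, Pgam1 and Ldha. In a bulk pulldown, fewer cells of a type and less RNA per cell cannot be told apart.

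**Figure D1:**
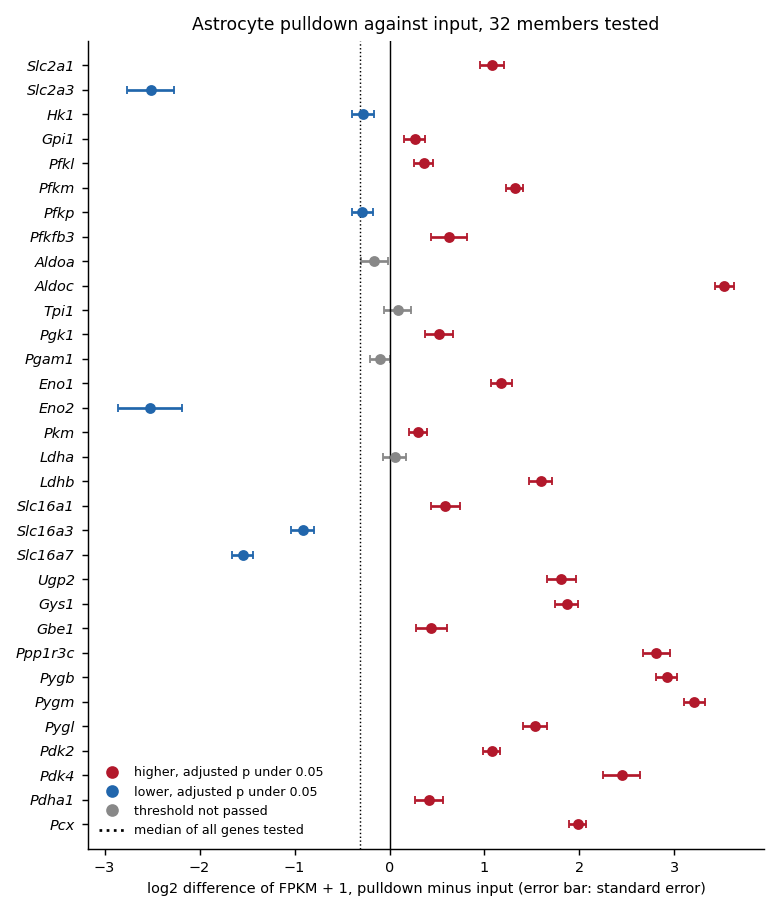
Log2 difference of FPKM + 1 between 16 pulldowns and 5 inputs for the 32 genes tested, in pathway order from glucose entry to pyruvate use, with standard errors. The dotted line is the median of all genes tested (-0.31); Aldoc lies farthest right at 3.52, and Eno2 and Slc2a3 lie farthest left near -2.5.

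Glucose enters through facilitative carriers. Slc2a1 encodes GLUT1, the carrier of astrocytes and of the blood-brain barrier endothelium. It stood at 34.7 (lowest), 57.0 (median) and 69.4 (highest) FPKM in the pulldowns and at 20.8, 26.0, 28.1, 25.8 and 26.4 FPKM in the dark-exposed, normally reared, dark-reared, contralateral and ipsilateral inputs. Every pulldown exceeded every input, and the difference was 1.08 ± 0.13 (log2, SE; adjusted p = 1.81e-07, limma). The 4 endothelial markers tested were lower in pulldown. Slc2a3 encodes GLUT3, the carrier of neurons. It stood at 3.9, 7.8 and 19.3 FPKM (lowest, median, highest) in pulldowns and at 43.3 to 53.4 FPKM in inputs, with no overlap, and was lower by -2.51 ± 0.25 (log2; adjusted p = 1.37e-08, limma). Slc2a1 made up 86.6% ± 6.78 (SD, n = 16) of the summed FPKM of both carriers in pulldowns and 34.01% ± 1.76 (SD, n = 5) in inputs, while their sum was 64.5 ± 9.92 and 74.7 ± 6.64 FPKM.

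Hexokinase traps glucose as glucose 6-phosphate. Hk1, the main brain form, stood at 61.9, 91.6 and 119.3 FPKM (lowest, median, highest) in pulldowns and at 96.8 to 119.6 FPKM in inputs, and the groups overlapped. Its difference of -0.28 ± 0.12 (log2; adjusted p = 0.0349, limma) lay 0.03 above the median of all genes, was 0.09 under median-ratio scaling, and did not pass the threshold without any 1 of 4 inputs (-0.28 without the dark-exposed, -0.29 without the dark-reared, -0.21 without the contralateral and -0.24 without the ipsilateral input) nor with 5 inputs set against 5 group means (-0.27). Hk2, the insulin-responsive form of muscle, was at 0.7 FPKM or less in all pulldowns and 0.8 FPKM or less in all inputs and was below the filter. Gpi1, the isomerase of the next step, was higher by 0.26 ± 0.11 (log2; adjusted p = 0.0347, limma). That call did not hold without any 1 of the dark-exposed (0.27), normally reared (0.16), contralateral (0.27) and ipsilateral (0.28) inputs or of normally reared replicate 1 (0.25), nor without both monocular libraries numbered 2 (0.20), nor with 5 inputs set against 5 group means (0.28).

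Phosphofructokinase commits sugar to glycolysis and is built from 3 subunits named for muscle (Pfkm), liver (Pfkl) and platelet (Pfkp). Pfkm stood at 340.8, 397.0 and 453.2 FPKM in pulldowns (lowest, median, highest) and at 140.0 to 176.3 FPKM in inputs, and was higher by 1.32 ± 0.09 (log2; adjusted p = 4.12e-11, limma). Pfkl was higher by 0.36 ± 0.10 (log2; adjusted p = 0.00255, limma). Pfkp, at 32.8 to 62.8 FPKM in pulldowns and 52.8 to 63.4 FPKM in inputs, was lower by -0.28 ± 0.11 (log2; adjusted p = 0.0238, limma). The Pfkp call was lost under quantile (-0.15) and median-ratio scaling (0.08) and without any 1 of the dark-exposed (-0.24), dark-reared (-0.25) and contralateral (-0.27) inputs. Pfkm held 80.7% of the summed subunit FPKM in pulldowns and 62.8% in inputs. Pfkfb3, which makes the activator fructose 2,6-bisphosphate, was higher by 0.63 ± 0.19 (log2; adjusted p = 0.00541, limma), with pulldowns at 2.6 to 11.2 FPKM overlapping inputs at 2.9 to 4.5 FPKM.

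Aldolase differed strongly by isozyme. Aldoc (chromosome 11, 78323073 to 78327781), the brain aldolase, stood at 3788.4, 4722 and 5314.5 FPKM in pulldowns (lowest, median, highest) and at 285.9, 388.9, 548.8, 373.0 and 441.1 FPKM in the normally reared, dark-exposed, dark-reared, contralateral and ipsilateral inputs. By mean FPKM it ranked 8 of 24537 genes in the pulldowns and 64 in the inputs. The difference was 3.52 ± 0.10 (log2; adjusted p = 4.00e-16, limma), and it was 3.19 to 3.96 in the 5 groups taken singly (log2 of pulldown mean over input, + 1). Aldoa, the muscle and ubiquitous form, was at 599.9 to 1178.4 FPKM in pulldowns and 679.1 to 1076.8 FPKM in inputs, with a difference of -0.16 ± 0.14 (log2; adjusted p = 0.306, limma). Its sign and call turned with the scaling, to -1.68 under quantile (adjusted p = 2.59e-09) and 0.21 under median-ratio scaling (adjusted p = 0.237), and it was called lower at -0.25 without both monocular libraries numbered 2. Summed aldolase FPKM was 5453 ± 491 (SD, n = 16) in pulldowns and 1302 ± 245 (SD, n = 5) in inputs.

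Tpi1, which interconverts the triose phosphates, differed by 0.08 ± 0.15 (log2; adjusted p = 0.604, limma), and this turned to -0.13 under quantile scaling and was called higher under median-ratio scaling (0.45; adjusted p = 0.0284, limma). Pkm, which makes pyruvate, was higher by 0.30 ± 0.10 (log2; adjusted p = 0.00833, limma), though not under quantile scaling (0.09) nor without the normally reared input (0.20). The Pkm splice forms could not be told apart, since the table holds 1 transcript a gene. Gapdh was listed at 0.2 to 1.2 FPKM in every library, Pgk1 at 5.1 to 16.2 FPKM and Pgam1 at 6.0 to 11.3 FPKM. Of the 50-base stretches of these transcripts, 90.4%, 68.0% and 41.5% occur also in transcripts of other genes in GENCODE vM21, for Gapdh in 222 genes of which 209 are annotated pseudogenes. How reads that match several places were counted is not given in the sources used here, so the levels of these 3 genes are uncertain. The same share was 34.4% for Pkm, 25.3% for Gpi1, 17.1% for Pfkp, 16.9% for Pdha1 and 14.4% for Aldoa, whose levels are less certain for the same reason. Pgk1 was higher by 0.52 ± 0.15 (log2; adjusted p = 0.00358, limma), and Pgam1 differed by -0.10 ± 0.11 (log2; adjusted p = 0.409, limma). Under quantile and median-ratio scaling Pgam1 was called higher, at 0.26 and 0.23.

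Enolase makes phosphoenolpyruvate. Eno1, the ubiquitous form that glia use, stood at 83.4, 110.0 and 129.1 FPKM in pulldowns (lowest, median, highest) and at 34.5 to 64.1 FPKM in inputs, and was higher by 1.18 ± 0.11 (log2; adjusted p = 5.48e-09, limma). Eno2, the neuron-specific enolase, stood at 29.2, 50.6 and 148.9 FPKM in pulldowns and at 296.4 to 411.5 FPKM in inputs, and was lower by -2.52 ± 0.34 (log2; adjusted p = 1.01e-06, limma). Neither gene's pulldowns overlapped its inputs. The level of Eno1 against Eno2 is uncertain, as 72.2% of Eno1's 50-base stretches occur in other genes' transcripts and 0.25% of Eno2's do. Eno2 ranged widely among the pulldowns, and its values are given here beside the summed neuron markers. It was at 148.9, 135.0 and 133.6 FPKM in ipsilateral replicate 2, normally reared replicate 3 and contralateral replicate 2, where the neuron markers summed to 1033.4, 1204.3 and 729.0 FPKM. It was at 29.2, 29.9 and 30.9 FPKM in ipsilateral replicates 1 and 3 and dark-reared replicate 1, where they summed to 283.1, 368.0 and 267.9 FPKM. These are the highest and lowest Eno2 values only. Among the pulldowns between, dark-exposed replicates 3 and 4 had Eno2 at 65.5 and 107.8 FPKM, where the neuron markers summed to 726.7 and 1175.4 FPKM. The part of this neuronal RNA in the Eno2 and Slc2a3 values was not tested.

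Lactate dehydrogenase is a tetramer of A subunits (Ldha, favoured in lactate-making tissue) and B subunits (Ldhb, favoured in oxidative tissue). Ldhb stood at 591.3, 745.4 and 904.9 FPKM in pulldowns (lowest, median, highest) and at 241.1, 170.7, 322.5, 229.9 and 278.8 FPKM in the dark-exposed, normally reared, dark-reared, contralateral and ipsilateral inputs. It was higher by 1.59 ± 0.12 (log2; adjusted p = 3.43e-10, limma), with no overlap. Ldha, at 99.3 to 247.3 FPKM in pulldowns and 114.8 to 172.6 FPKM in inputs, differed by 0.06 ± 0.12 (log2; adjusted p = 0.677, limma), called higher only under median-ratio scaling (0.42). Ldhb was 83.7% ± 2.94 (SD, n = 16) of the summed FPKM of both in pulldowns and 63.9% ± 3.42 (SD, n = 5) in inputs. Some of the 50-base stretches of both genes occur elsewhere, 19.1% for Ldha and 27.01% for Ldhb.

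Of the lactate carriers, Slc16a1 (MCT1, of glia and endothelium) stood at 5.7, 11.6 and 14.4 FPKM in pulldowns (lowest, median, highest) and at 5.4 to 7.6 FPKM in inputs, overlapping, and was higher by 0.59 ± 0.15 (log2; adjusted p = 0.00158, limma). Slc16a7 (MCT2, of neurons) stood at 0.4 to 1.2 FPKM in pulldowns and at 2.8 to 6.2 FPKM in inputs and was lower by -1.55 ± 0.11 (log2; adjusted p = 1.10e-10, limma). Slc16a3 (MCT4, known as an astrocyte carrier in culture and in brain) was lower by -0.91 ± 0.12 (log2; adjusted p = 8.02e-07, limma), at 0.5 to 1.5 FPKM in pulldowns and 2.0 to 2.8 FPKM in inputs. Both carriers were near 1 FPKM in the pulldowns, where the pseudocount compresses differences. The 3 carriers summed to 12.5 ± 2.49 FPKM in pulldowns and 13.3 ± 1.61 FPKM in inputs, with Slc16a1 holding 86.3% and 50.2%.

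Glycogen is built from UDP-glucose (made by the enzyme of Ugp2) by glycogen synthase (Gys1) and the branching enzyme (Gbe1), and is broken down by glycogen phosphorylase, which has brain (Pygb), muscle (Pygm) and liver (Pygl) forms. Ppp1r3c encodes a subunit that brings protein phosphatase to glycogen and favours its synthesis. All 7 of these genes were higher in pulldown than in input, by 0.44 to 3.21 on the log2 scale. For 6 of them every pulldown lay above every input, the exception being Gbe1. Over all 34 genes, 14 had every pulldown above every input and 4 had every pulldown below, against 14.9% and 28.9% of all 12070 genes compared.

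Pygb stood at 289.7, 430.2 and 515.8 FPKM in pulldowns (lowest, median, highest) and at 61.9, 46.1, 58.7, 51.5 and 51.0 FPKM in the dark-exposed, normally reared, dark-reared, contralateral and ipsilateral inputs. The lowest pulldown was above the highest input, and the difference was 2.92 ± 0.11 (log2; adjusted p = 1.54e-14, limma). Pygm stood at 106.2, 119.0 and 163.0 FPKM in pulldowns and at 14.4, 9.9, 13.9, 12.7 and 13.6 FPKM in the same order of inputs. It was higher by 3.21 ± 0.11 (log2; adjusted p = 1.96e-15, limma). Pygl, at 3.1 to 7.4 FPKM in pulldowns and 1.0 to 1.4 FPKM in inputs, was higher by 1.53 ± 0.13 (log2; adjusted p = 1.53e-09, limma). The 3 forms summed to 553 ± 64.1 FPKM (SD, n = 16) in pulldowns and 67.9 ± 8.07 FPKM (SD, n = 5) in inputs. Of the sum, Pygb was at 75.5% and 79.3%, Pygm at 23.5% and 19.0% and Pygl at 0.98% and 1.74% in pulldown and input.

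On the side of synthesis, Ppp1r3c stood at 79.1, 159.8 and 228.2 FPKM in pulldowns (lowest, median, highest) and at 16.9 to 28.4 FPKM in inputs, and was higher by 2.81 ± 0.15 (log2; adjusted p = 1.06e-12, limma). Gys1 was at 16.0 to 29.0 FPKM in pulldowns and 4.5 to 6.5 FPKM in inputs, higher by 1.87 ± 0.12 (log2; adjusted p = 3.03e-11, limma). Ugp2 was at 64.4 to 128.9 FPKM and 23.9 to 40.0 FPKM, higher by 1.81 ± 0.15 (log2; adjusted p = 1.53e-09, limma). Gbe1 was at 2.6 to 7.4 FPKM in pulldowns and 3.0 to 3.8 FPKM in inputs, higher by 0.44 ± 0.16 (log2; adjusted p = 0.0187, limma), but its call was lost without the normally reared (0.36) or the dark-reared input (0.41).

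Pyruvate enters the citric acid cycle either through the pyruvate dehydrogenase complex, of which Pdha1 encodes a catalytic subunit and which the kinases Pdk2 and Pdk4 switch off, or through pyruvate carboxylase (Pcx), the anaplerotic enzyme known in brain as a glial one. Pcx stood at 58.5, 69.9 and 85.7 FPKM in pulldowns (lowest, median, highest) and at 15.4 to 20 FPKM in inputs, and was higher by 1.98 ± 0.09 (log2; adjusted p = 1.21e-13, limma). Pdk4 was at 11.4 to 35.2 FPKM in pulldowns and 2.6 to 3.9 FPKM in inputs, higher by 2.45 ± 0.19 (log2; adjusted p = 6.52e-10, limma). Pdk2 was higher by 1.08 ± 0.09 (log2; adjusted p = 1.22e-09, limma), and Pdk4 held 15.4% of the summed FPKM of both kinases in pulldowns and 5.24% in inputs. Neither kinase nor Pcx overlapped between pulldown and input. Pdha1 was higher by 0.42 ± 0.15 (log2; adjusted p = 0.0143, limma), a call that was lost without the normally reared input (0.32).

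Isozymes of 1 step were compared within libraries as log2 ratios of FPKM + 1, which scaling of a library as a whole touches little. The test was an exact permutation of the input label within each group (1280 arrangements, 2-sided, 10 ratios, Benjamini-Hochberg over the 10), whose smallest possible p is 0.0007813. In 8 of the 10 the ratio moved toward the first gene named in pulldown and reached that smallest p (adjusted p = 0.0009766). The shifts, pulldown minus input on the log2 scale, were 3.69 for Eno1 over Eno2, 3.68 for Aldoc over Aldoa, 3.58 for Slc2a1 over Slc2a3 and 2.13 for Slc16a1 over Slc16a7. They were 1.60 for Pfkm over Pfkp, 1.54 for Ldhb over Ldha, 1.37 for Pdk4 over Pdk2 and 0.65 for Pfkl over Pfkp. Each of these 8 was positive in all 5 groups, and no pulldown overlapped an input. Same-numbered contralateral and ipsilateral pulldowns deviate together. The permutation test and the limma fit of pulldown against input treat them as independent. With 26.4% of all genes called higher and 50.7% lower, ratios of other gene pairs can shift as well; these were not tested, and nothing particular to these steps is read from the count. The size depended on the pseudocount where a gene was low, from 1.08 (pseudocount of 5) to 2.99 (0.1) for Slc16a1 over Slc16a7 and from 0.70 to 1.64 for Pdk4 over Pdk2. Pygm over Pygb shifted by 0.30 (exact p = 0.0719), and Hk2 over Hk1 by 0.01 (exact p = 0.923).

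**Figure D2:**
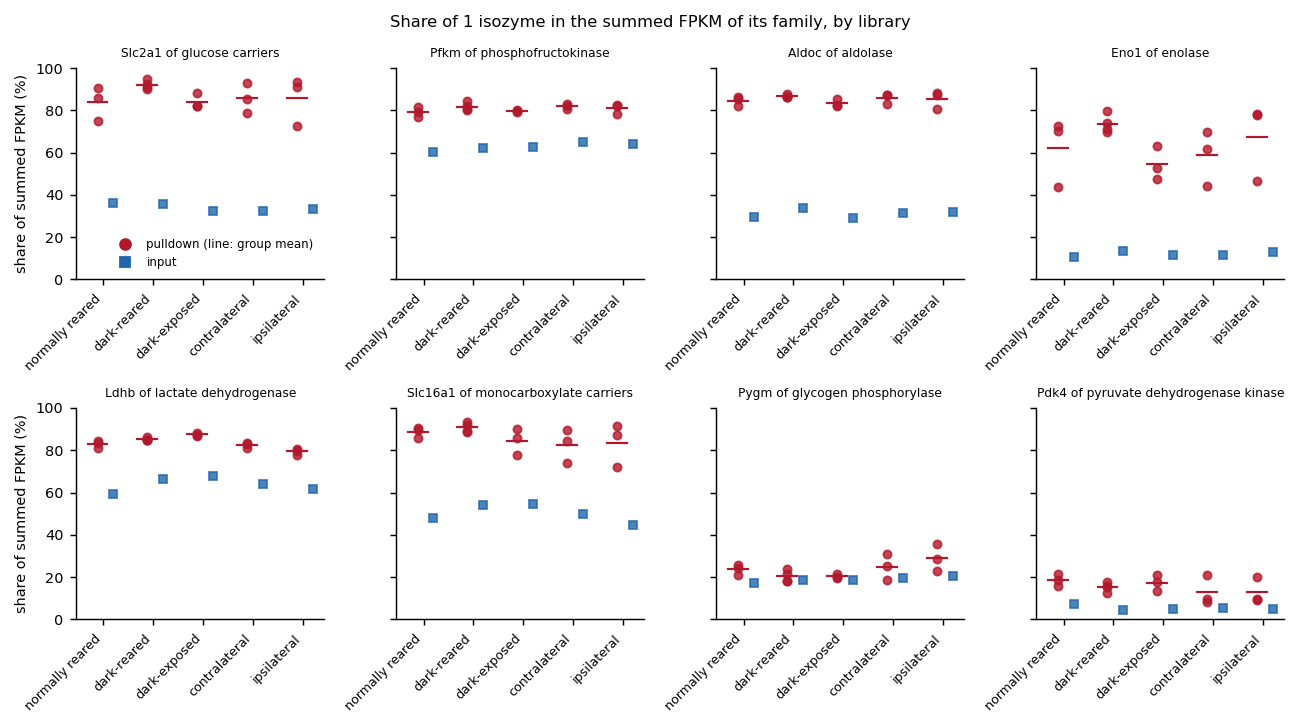
Share of the named gene in the summed FPKM of its isozyme family, in percent, for each of the 16 pulldowns (circles, with the group mean as a line) and 5 inputs (squares). Aldoc is at 80.8% to 88.3% in pulldowns and 29.1% to 33.8% in inputs, while Eno1 spreads from 43.6% to 79.7% across pulldowns and Pygm overlaps its inputs.

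The same pathways hold 90 further genes on 6 lists, described here by counts. Over all genes tested the shares were 26.4% higher and 50.7% lower, at a median of -0.31 (log2). The lists were not tested as sets. In glycogen metabolism 10 of 18 tested were higher and 4 lower in pulldown, with a median of 0.47 (log2). Those with the smallest p were the phosphoglucomutase gene Pgm2 (2.31 ± 0.08, adjusted p = 1.96e-15), the phosphorylase kinase catalytic subunit gene Phkg1 (2.81 ± 0.10, adjusted p = 2.53e-15) and the glycogen-targeting subunit gene Ppp1r3g (3.07 ± 0.17, adjusted p = 1.96e-12), all higher, and Pgm2l1, the brain glucose 1,6-bisphosphate synthase gene, lower (-2.82 ± 0.24, adjusted p = 1.53e-09; limma, log2, SE). In the pentose phosphate pathway, which branches from glucose 6-phosphate and makes NADPH, 5 of 8 were higher and 3 lower, with transketolase (Tkt) at 1.77 ± 0.09, glucose 6-phosphate dehydrogenase (G6pdx) at 1.52 ± 0.09, transaldolase (Taldo1) at 1.07 ± 0.12 and phosphogluconate dehydrogenase (Pgd) at 0.82 ± 0.07 (log2, SE). The remaining glycolysis genes lay near the shares of all genes, with 3 of 12 higher and 6 lower (median -0.19). Bpgm, which makes 2,3-bisphosphoglycerate, was higher by 1.195 ± 0.10 and Tigar, a fructose bisphosphatase, lower by -1.24 ± 0.11.

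Of 9 genes of the NADH shuttles, which carry cytosolic reducing power into the mitochondrion, 5 were lower and 2 higher, with a median of -0.49 (log2). This lay near the shares of all genes tested, 50.7% lower and 26.4% higher at a median of -0.31. The other counts of this paragraph are to be read against the same shares. The aspartate aminotransferases Got1 and Got2 and the aspartate and glutamate carrier Slc25a12, all of the malate and aspartate shuttle, were lower by -2.14 ± 0.22, -1.85 ± 0.17 and -1.58 ± 0.16, and the glycerol phosphate shuttle gene Gpd1 was higher by 0.77 ± 0.11 (log2, SE; limma). The level of Got2 is uncertain, as 47.2% of its 50-base stretches occur also in transcripts of other genes. Genes of the shuttles differed in direction. Of those named after their values were seen, Mdh2 of the first shuttle was higher by 0.46 ± 0.13 and Mdh1 lower by -0.49 ± 0.14. Slc25a11 of that shuttle differed by -0.02 ± 0.09. Gpd1l, a relative of Gpd1, was lower by -0.80 ± 0.12, and Gpd2 of the second shuttle differed by 0.001 ± 0.20 (log2, SE, limma). For entry of pyruvate, 2 of 11 were higher and 3 lower, and both directions held phosphatases. The phosphatase genes Pdp1 and Pdp2, whose products switch the dehydrogenase on, were lower by -2.11 ± 0.26 and higher by 1.10 ± 0.14, and the kinase genes Pdk1 and Pdk3 were lower by -1.09 ± 0.15 and -0.72 ± 0.11 (log2, SE; limma). Of the other sugar and monocarboxylate carriers, 5 of 11 were higher and 4 lower. The glucose carrier gene Slc2a4 (GLUT4) was higher by 1.22 ± 0.12, at a mean of 2.11 FPKM in pulldowns and 0.3 FPKM in inputs. Emb, a partner protein of monocarboxylate carriers, was lower by -1.90 ± 0.12. The carrier genes Slc2a13 and Slc2a6 were lower by -2.54 ± 0.17 and -1.86 ± 0.17 (log2, SE; limma). In the 3 comparisons between pulldown groups, none of those tested passed the threshold of an adjusted p under 0.05 (limma).

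The remaining comparisons asked whether visual experience changed these genes on astrocyte ribosomes. Of the 34 genes, 30 passed the filter over the 16 pulldowns (Hk2, Gapdh, Slc16a3 and Slc16a7 did not). None of the 30 passed an adjusted p under 0.05 (limma, 1 estimate of the spread over all 5 groups, adjusted over 11562 genes) in dark rearing, monocular deprivation or dark exposure. Over all genes the shares that passed were 0.00865% (1 gene), 0.00% (0 genes) and 0.0865% (10 genes). At an unadjusted p under 0.05 there were 0, 0 and 1 of the 30, against 640, 84 and 442 of all genes. In dark rearing this count depended on the spread used. It was 6 of 30, against 1563 of 11510 genes, with only the 2 groups compared. With array weights it was 4 of 30, against 1765 of all genes, and in the other fits at most 2. None of the 30 passed the adjusted threshold in any of these dark-rearing fits. The dark-reared and the dark-exposed comparison share the 3 normally reared libraries.

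**Figure D3:**
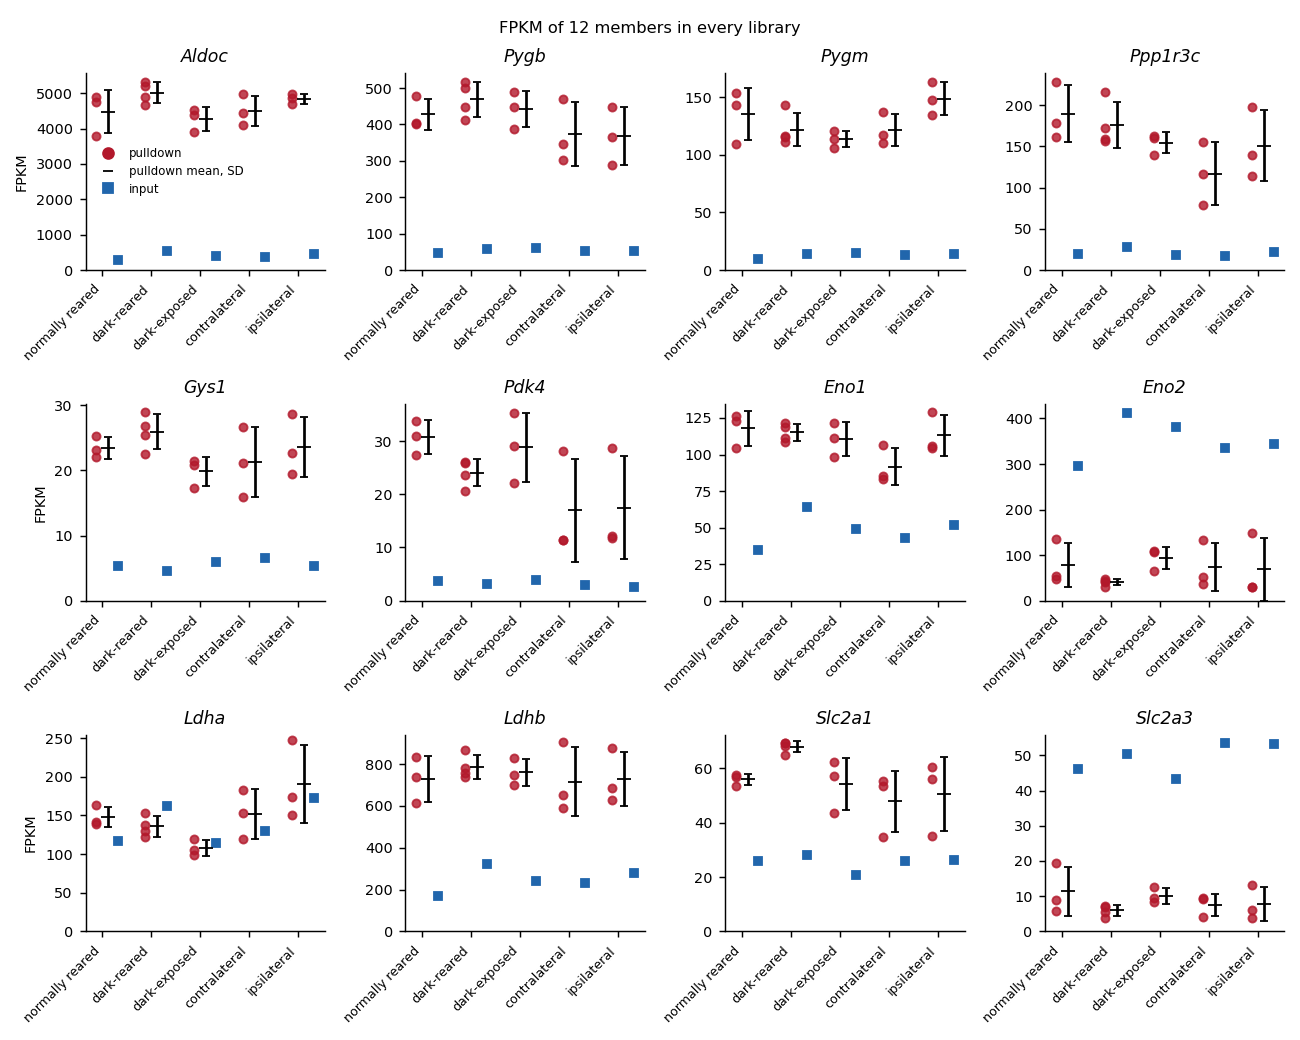
FPKM of 12 genes in every library, on linear axes from 0, with pulldowns as circles, the pulldown mean and SD beside them and the input as a square. Aldoc, Pygb, Pygm, Ppp1r3c, Gys1 and Pdk4 lie above their inputs in every group, Eno2 and Slc2a3 lie below, and the pulldown groups overlap for most genes.

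In dark-reared against normally reared mice of the same age, the 10 genes with the smallest p were Pfkp, Slc2a3, Eno2, Slc2a1, Aldoc, Pfkfb3, Hk1, Pygl, Pfkl and Pdk4. Slc2a1 stood at 69.3, 68.3, 69.4 and 65.1 FPKM in the 4 dark-reared and at 56.8, 53.6 and 57.6 FPKM in the 3 normally reared libraries. All 4 dark-reared values lay above all 3 normally reared ones. The difference was 0.28 ± 0.20 (log2; adjusted p = 0.890, limma). Its SD was 2.12 and 2.01 FPKM in the normally reared and dark-reared group and 9.63, 11.4 and 13.7 FPKM in the dark-exposed, contralateral and ipsilateral groups, which enter the same estimate of the spread. Pfkp stood at 38.3, 44.6, 47.2 and 45.6 FPKM in dark-reared and 51.3, 53.6 and 61.1 FPKM in normally reared libraries. Again the groups did not overlap, and the difference was -0.33 ± 0.17 (log2; adjusted p = 0.871, limma).

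Aldoc stood at 5314.5, 4672.1, 5196.6 and 4897.3 FPKM in dark-reared and 4751.0, 4893.5 and 3788.4 FPKM in normally reared libraries, which overlapped (0.17 ± 0.13, log2; adjusted p = 0.891, limma). Under quantile scaling its sign turned, to -0.07. Eno2 stood at 30.9, 48.2, 41.4 and 44.1 FPKM in dark-reared and 46.6, 53.7 and 135.0 FPKM in normally reared libraries (-0.77 ± 0.54, log2; adjusted p = 0.888, limma). Slc2a3 stood at 3.9, 6.9, 5.6 and 7.3 FPKM and at 5.9, 8.9 and 19.3 FPKM (-0.72 ± 0.40, log2; adjusted p = 0.878, limma). Both were highest in normally reared replicate 3. The neuron markers summed to 267.9 to 426.9 FPKM in dark-reared and 432.8 to 1204.3 FPKM in normally reared libraries, and 9 of 11 tested were lower in dark-reared, with a median of -0.69 (log2). Their part in the Eno2, Slc2a3, Hk1 and Pfkp values was not tested. The other 5 had differences of -0.42 (Pfkfb3), -0.22 (Hk1), 0.26 (Pygl), -0.18 (Pfkl) and -0.34 (Pdk4) on the log2 scale, with standard errors of 0.16 to 0.32. Pygl (7.4, 6.8, 6.3 and 5.7 FPKM in dark-reared, 5.1, 5.5 and 5.2 FPKM in normally reared libraries), Pfkl (44.9, 48.1, 47.6 and 45.3 against 51.0, 52.8 and 54.7 FPKM) and Pdk4 (20.7, 26.0, 23.7 and 25.9 against 27.4, 31.0 and 33.8 FPKM) did not overlap either. In all, 2 of the 30 genes lay above and 3 below with no overlap, against 2.71% and 9.06% of all 11562 genes, and nothing particular to the 30 is read from this.

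After monocular deprivation, 26 of the 30 genes had lower estimates on the contralateral side, at a median of -0.11 (log2), and so had 8063 of 11562 genes in all, at a median of -0.06. The 10 with the smallest p were Eno1, Pygm, Pgam1, Ldha, Pfkp, Ppp1r3c, Hk1, Gbe1, Pygl and Pfkm. The replicate numbers of both sides deviate together (correlations of 0.79 to 0.90 over all genes), so values are given by number. Contralateral replicate 2 was the library whose depth was not clear, and it had the fewest genes above 0 FPKM (14092). Eno1 stood at 83.4, 106.3 and 85.1 FPKM on the contralateral side (replicates 1, 2 and 3) and at 105.7, 129.1 and 104.3 FPKM on the ipsilateral side, lower in all 3 pairs. Pygm stood at 117.2, 137.2 and 109.9 FPKM against 147.8, 163.0 and 134.4 FPKM, also lower in all 3 pairs. Without the pairing the differences were -0.30 ± 0.15 and -0.29 ± 0.16 (log2; adjusted p = 1.0 for both, limma).

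Ppp1r3c stood at 116.3, 79.1 and 155.6 FPKM contralaterally and 139.2, 114.4 and 198.2 FPKM ipsilaterally, and Ldha at 153.8, 183.5 and 119.3 FPKM against 173.7, 247.3 and 150.7 FPKM. In both the pairs all went the same way while the sides overlapped as groups. With the replicate number added as a block over the 6 monocular libraries, the smallest unadjusted p among the 30 belonged to Ppp1r3c (-0.38 ± 0.07, log2; adjusted p = 0.359, limma), Eno1 (-0.30 ± 0.07; adjusted p = 0.515), Pygm (-0.29 ± 0.06; adjusted p = 0.515) and Ldha (-0.31 ± 0.07; adjusted p = 0.515). No gene of the 30 passed the threshold there, 7 had an unadjusted p under 0.05, and of all 11370 genes tested 1 passed and 705 had an unadjusted p under 0.05. Of the 30 genes tested, 19 were lower in all 3 pairs and 1, Pygl, was higher in all 3 (3.7, 4.5 and 6.4 FPKM against 3.5, 3.1 and 5.7 FPKM). Of all 11562 genes, 20.8% were lower and 4.80% higher in all 3 pairs. The genes of 1 library are not independent of each other, and nothing particular to the 30 is read from this count. Astrocyte markers had a median difference of -0.12 (log2) and 9 of 12 were lower.

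**Figure D4:**
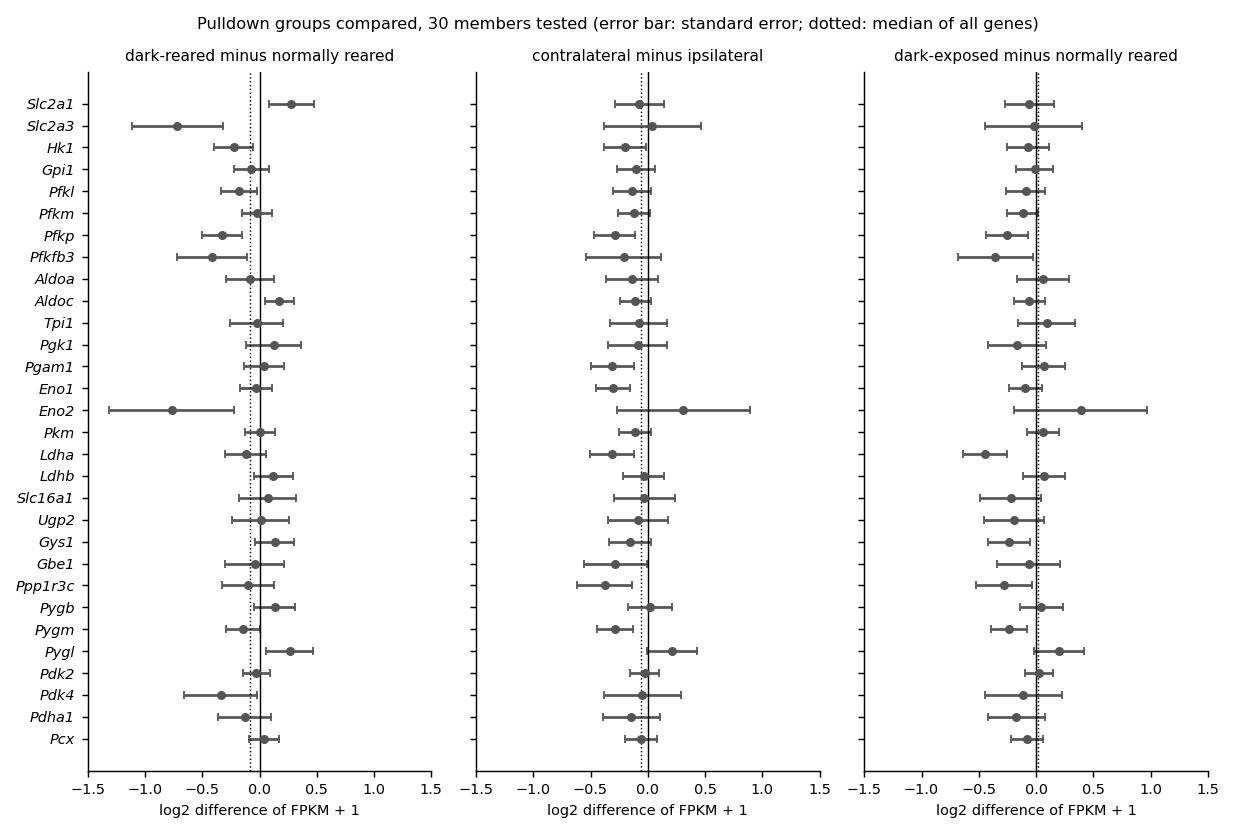
Log2 differences of FPKM + 1 with standard errors for the 30 genes tested in each of 3 comparisons between pulldown groups, with the median of all genes as a dotted line. No gene passed the threshold, the widest error bars belong to Eno2 and Slc2a3, and most contralateral minus ipsilateral estimates lie left of 0.

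For several genes the replicate numbers differed by more than the sides did. Pdk4 was at 11.4, 11.4 and 28.1 FPKM contralaterally and 11.7, 12.1 and 28.7 FPKM ipsilaterally. Ugp2 was at 64.4, 65.3 and 128.6 FPKM and at 69.2, 72.5 and 128.9 FPKM. In both genes replicate 3 stood apart from replicates 1 and 2 on both sides. Slc2a1, at 53.6, 34.7 and 55.2 FPKM against 56.2, 35.1 and 60.7 FPKM, and Slc16a1, at 9.2, 6.0 and 11.8 FPKM against 9.5, 5.7 and 12.8 FPKM, were low in replicate 2 on both sides. Aldoa, at 660.7, 1005.2 and 599.9 FPKM against 722.5, 1178.4 and 621.5 FPKM, Tpi1, at 287.7, 403.1 and 209.7 FPKM against 284.5, 430.9 and 233.9 FPKM, and Eno2 were high in replicate 2. The astrocyte markers summed to 7574.9 and 7914.7 FPKM in the libraries numbered 2, to 8363.3 and 9224.1 FPKM in those numbered 1 and to 14115.3 and 14227.2 FPKM in those numbered 3. Rn45s stood at 20158.5 to 31653.8 FPKM in the 4 libraries numbered 1 and 2. The part of these differences in the gene values was not tested.

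**Figure D5:**
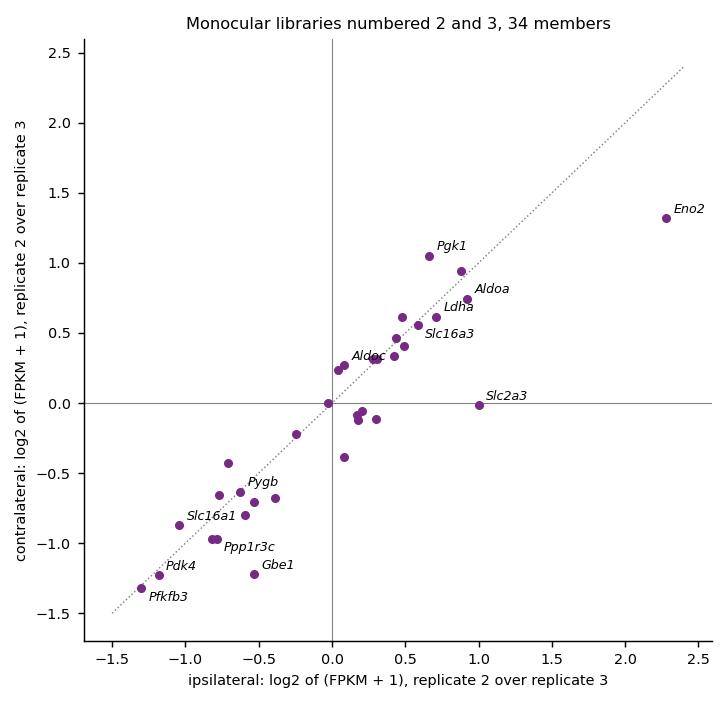
Log2 ratio of FPKM + 1 in replicate 2 over replicate 3 for the 34 genes, ipsilateral on the horizontal and contralateral on the vertical axis, with the line of equal values dotted. Pfkfb3 and Pdk4 lie low on both axes (-1.30 and -1.32, and -1.18 and -1.23), Aldoa and Ldha lie high on both, and Eno2 lies farthest right at 2.28.

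Dark-exposed mice were older than the normally reared ones (120 against 45 days), so age and darkness cannot be told apart. The 10 genes with the smallest p were Ldha, Pygm, Pfkp, Gys1, Ppp1r3c, Pfkfb3, Pygl, Pfkm, Slc16a1 and Ugp2. Ldha stood at 119.8, 99.3 and 105.1 FPKM in dark-exposed and at 138.9, 162.9 and 141.4 FPKM in normally reared libraries, which did not overlap. It was the only one of the 30 with an unadjusted p under 0.05 (0.0338), and its difference of -0.45 ± 0.19 (log2) did not pass the threshold (adjusted p = 1.0, limma). With array weights, which give noisy libraries less say, it did (-0.54; adjusted p = 0.0196, limma), where 185 genes were called higher and 73 lower in all. Gys1, at 17.3, 21.4 and 20.9 FPKM against 25.3, 23.2 and 22.0 FPKM, did not overlap either, with a difference of -0.24 ± 0.18 (log2; adjusted p = 1.0, limma). Pfkp, at 46.3, 47.5 and 44.9 FPKM against 51.3, 53.6 and 61.1 FPKM, also did not overlap and differed by -0.25 ± 0.18 (log2; adjusted p = 1.0, limma). With Pfkl, 4 of the 30 genes lay below with no overlap and 0 above, against 4.60% and 6.31% of all 11562 genes.

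For the other 7 the libraries of the groups overlapped. Pygm stood at 106.2, 120.8 and 113.7 FPKM in dark-exposed and 153.4, 143.0 and 109.6 FPKM in normally reared libraries (-0.24 ± 0.16, log2; adjusted p = 1.0, limma). Slc16a1 stood at 7.3, 13.0 and 11.4 FPKM against 11.1, 11.2 and 14.4 FPKM, and its difference of -0.22 turned to 0.003 without dark-exposed replicate 1. In these libraries the astrocyte markers summed to 8617.6 to 11859.4 FPKM, against 12273.2 to 12696.2 FPKM in normally reared ones, and the microglia markers to 63.3 to 122.3 FPKM, against 10.2 to 21.2 FPKM. All 12 astrocyte markers had lower estimates in dark-exposed libraries (median -0.37, log2), and 6 of 9 microglia markers tested were called higher. All 11 neuron markers tested had higher estimates (median 0.28, log2) and 0 were called, at sums of 726.7 to 1175.4 FPKM against 432.8 to 1204.3 FPKM. Their part in the values of Ldha and the other genes was not tested.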

How the data were processed

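The deposited table holds FPKM values (fragment counts scaled to transcript length and library depth), made by the authors, with 1 transcript per gene. The submitters' processing notes name the build mm10 and, with no role given, HOMER 4.10, STAR 2.5.1b, DESeq2, R 3.4.3, CASAVA 1.8.2 and FastQC 0.11.2, and how multi-mapping reads were counted is not given in the sources used here. 21 libraries were used, 16 pulldowns and 5 inputs. The dark-reared pulldown numbered 2 is not analysed here, 1 column of no listed sample was not used, and 5 columns of authors' averages were not used.

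Values were tested on log2(FPKM + 1) with limma 3.58.1 in R 4.3.3 (trend and robust moderation, 2-sided) for genes with a mean above 1 FPKM, adjusted by Benjamini-Hochberg over all genes tested, with a threshold of 0.05. Fold changes are on the log2(FPKM + 1) scale, which understates those of low genes. Depth was read from the steps of FPKM in genes of up to 130 bases and was not clear in 1 of 21 libraries. This was contralateral replicate 2, with 54 such genes above 0, against 104 to 310 in the others. Isozyme ratios used an exact permutation test. The reported limma fits and the permutation test were run on simulated data, with outcomes not given here. The alternative fits and the rule for outliers were not. Simulated libraries were drawn independently of each other, whereas same-numbered monocular libraries deviated together. Shared sequence was counted over 50-base words of GENCODE vM21 transcripts, and promoters came from RefSeq GRCm38.p6. The members and lists were chosen with earlier results of these data known. All 34 genes may be named, and at most 4 further genes per list by smallest p in pulldown against input. More are named for the NADH shuttles, after their values were seen. In the group comparisons the 10 of smallest p come first.

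The numbers of the monocular libraries were taken as pairs: same-numbered contralateral and ipsilateral libraries deviated together from their group means (correlations of 0.8016, 0.7905 and 0.9029 over 11562 genes), which comes from the data and not from the labels. Alternatives covered pseudocounts of 0.1 and 5, no filter and a filter of 5 FPKM, quantile and median-ratio scaling, array weights, each library left out, both monocular libraries numbered 2 left out, no group term, 5 inputs against 5 group means, only the 2 groups compared, and a replicate block.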

Additional observations from a re-analysis of the deposited data

Results flagged for a closer look

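Pygm in dark-reared replicate 5 stood at 143.2 FPKM, away from the other 3 dark-reared pulldowns at 111.3, 115.6 and 116.6 FPKM. The gap to the nearest of them was 0.834 of the group's whole range, past the critical value for 4 samples. Only the dark-reared group had enough libraries for this rule, which was applied to 34 genes, and chance flags about 1 in 20.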

How the results depend on the processing

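Over the alternatives, 18 to 25 of the genes were called higher and 4 to 7 lower in pulldown, and 8 or 9 isozyme ratios passed. Of 988 values of single genes in pulldown against input, 952 kept direction and side of the threshold. Those of Hk1, Gpi1, Pfkp, Pkm, Gbe1 and Pdha1 that lost the call, and those of Aldoa, Tpi1, Pgam1 and Ldha that gained it, belong to differences under 0.5 on the log2 scale, apart from Aldoa under quantile scaling (-1.68). Signs turned under median-ratio scaling for Hk1 (0.090), Pfkp (0.079), Aldoa (0.21) and Pgam1 (0.23), and under quantile scaling for Tpi1 (-0.13), Pgam1 (0.26), Ldha (-0.030) and, in dark rearing, Aldoc (-0.065). Without both monocular libraries numbered 2, Tpi1 was -0.0022 and Ldha -0.013. Leaving out 1 library or group at a time gave -0.0029 to 0.15 for Tpi1, -0.012 to 0.14 for Ldha, -0.050 to 0.073 for the ratio of Hk2 to Hk1 (which was -0.44 with a pseudocount of 0.1), and -0.37 to 0.0029 for Slc16a1 in dark exposure. The cause was not tested.

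In the comparisons between pulldown groups, no alternative called any of the genes, except that array weights called 1, Ldha, in dark exposure. With the replicate block, the monocular comparison called 0 of 30 genes, as without it; over all genes it called 1, against 0 without it. The block over all pulldown libraries also called 0 of 30 in dark rearing and in dark exposure, where numbers are shared by label only. Counts over all genes moved more. In dark exposure, where the reported test called 9 genes higher and 1 lower, there were 70 and 3 without a filter, 18 and 2 with a pseudocount of 5, 185 and 73 with array weights, 12 and 4 without both monocular libraries numbered 2, 18 and 0 with the replicate block, 1 and 0 with only the 2 groups, and 0 above 5 FPKM (limma; 253 at an unadjusted p under 0.05). In dark rearing 1 gene was called lower, against 27 with array weights, 0 with the replicate block (1028 at an unadjusted p under 0.05) and 1 or 2 in the other fits that kept all libraries of both groups. Groups of 3 or 4 libraries and FPKM rounded to 0.1 limit what can be seen in genes near 1 FPKM (Hk2, Gapdh, Slc16a3, Slc16a7).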
